A study of Mus musculus with 4 samples.

Results

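The Bcl2 family holds the proteins that decide whether the outer membrane of the mitochondrion is opened during apoptosis. Its transcripts were followed here through 10 genes in neural stem/progenitor cells (NSPCs) exposed to PJ34, an inhibitor of poly(ADP-ribose) polymerases. The genes were *Bbc3*, *Pmaip1*, *Bid*, *Bad* and *Bcl2l11*, which encode BH3-only proteins, *Bax* and *Bak1*, which encode the multidomain effectors, and *Bcl2*, *Bcl2l1* and *Mcl1*, which encode the multidomain pro-survival proteins. They were taken by gene symbol from the array's own annotation, which gave 13 of 55681 probes. *Bad*, *Bcl2l1* and *Mcl1* had 2 probes each and the other members 1.

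The measurements come from 4 two-colour expression arrays, of which 2 were from wild-type and 2 from *Trp53*-/- NSPCs. Per the labels, all cells came from Slc:ICR mouse embryos at embryonic day 13.5 and were grown in neurosphere medium with EGF and basic FGF. On every array, cells given 20 μM PJ34 (Cy5) were set against untreated control cells of the same genotype (Cy3). The RNA was prepared independently for each array, so the array was the replicate (n = 2 per genotype). The *Trp53*-/- cells descended from heterozygous mice of a repository. The labels give the same strain for both genotypes, but the background of the repository line is not described. An effect of mouse line therefore cannot be told apart from one of *Trp53* genotype. Neither the part of *Trp53* that was deleted nor the length of the exposure to PJ34 before RNA extraction is given in the sources used here. The dyes were never swapped, so within a genotype a dye bias cannot be told apart from an effect of PJ34.

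BH3-only proteins carry the short BH3 helix as their only shared domain. They act by occupying the groove of pro-survival members or by contacting the effectors directly. Bax and Bak, once active, assemble in the outer membrane and let cytochrome c out, which leads to the Apaf-1 apoptosome and to caspase activation. Bcl-2, Bcl-xL (from *Bcl2l1*) and Mcl-1 hold this step back. The genes *Bbc3* (Puma), *Pmaip1* (Noxa) and *Bax* are known targets of the transcription factor p53, and in the developing brain the family governs the loss of progenitors after DNA damage.

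3 of the 13 probes are shown. Those of *Bcl2l11* and *Bcl2* read codons of the domains that define the BH3-only and the multidomain members, and that of *Bcl2l1* belongs to the gene whose probes differed in their response. Sequences are as the array files give them, 5′ to 3′ along the transcript, with positions on the mouse build mm9. The *Bcl2l11* probe (chr2:127972893-127983988, plus strand) spans an exon junction, and its capitals mark codons of the BH3 core. The *Bcl2* probe (chr1:108608970-108609029, minus strand) lies over codons of the BH1 domain. The *Bcl2l1* probe shown (chr2:152655185-152655244, minus strand) is the weaker of the pair for that gene, whose brighter probe lies at chr2:152606404-152606463 on the same strand.
*Bcl2l11*: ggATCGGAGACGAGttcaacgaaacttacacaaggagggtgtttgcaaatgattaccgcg
*Bcl2*: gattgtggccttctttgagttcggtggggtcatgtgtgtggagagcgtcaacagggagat
*Bcl2l1*: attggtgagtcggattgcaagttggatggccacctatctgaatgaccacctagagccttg

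Per array, the PJ34 channel had between 26081 and 27156 probes well above background and the control channel between 21505 and 24540. All 13 member probes passed the filter for ratios, and none was saturated on any array. The *Trp53* probe, which may lie outside the deleted part and then checks nothing, had normalized log2 control levels of 8.28 and 8.51 in wild-type and 7.56 and 7.82 in *Trp53*-/- cells (difference -0.71, *q* = 0.0554). *Trp53*-/- replicate 2 stood apart. There the Y-linked gene *Eif2s3y* had a log2 ratio of 4.22 and was above background in the PJ34 channel but not in the control channel, so the sex makeup of the cells differed between its channels. Results of calls that use it are therefore also given without it, for some as the size of the difference alone. The untreated cells differed as well, since *Eif2s3y* was above background in both wild-type controls and in neither *Trp53*-/- control. All 10 progenitor markers examined (among them *Nes*, *Sox2* and *Vim*) were above background in all 8 channels, and none of 5 mesenchymal markers was in any. The progenitor marker *Hes5*, a target of Notch signalling, was called lower with PJ34 in wild-type cells (log2 ratio -1.76, limma, *q* = 3.37e-05). Its mean was -0.65 in *Trp53*-/- cells (*q* = 0.00573), and the genotype difference of -1.11 was called (*q* = 0.0189). That difference was -0.91 without *Trp53*-/- replicate 2 (*q* = 0.0263), short of 2-fold. Its part in the members' response was not tested.

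A probe was called changed when limma gave *p* below 0.05, Storey's *q* below 0.05 over all probes tested and a change of more than 2-fold, the criteria of the study's methods. In wild-type NSPCs, PJ34 upregulated *Bbc3* and *Pmaip1* by this rule. These were 2 of the 10 members (20.0%), against 0.436% of all 27042 probes tested called in either direction and 0.263% called higher. No member was called lower. The median log2 ratio was 0.30 over the members and 0.03 over all probes tested. Both genes are among those that the study singled out on these same arrays, so their direction is not independent evidence.

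*Bbc3*, whose product Puma binds all major pro-survival members, gave log2 ratios of 1.63 and 1.25 on the wild-type arrays and -0.12 and -0.02 on the *Trp53*-/- arrays. Both wild-type arrays lay above 2-fold and both *Trp53*-/- arrays lay at or just under 0, with no overlap. The wild-type mean was 1.44 ± 0.11 (SE), which is 2.71-fold (limma, *q* = 3.00e-05). Its *Trp53*-/- mean was -0.07 ± 0.11 (95% interval -0.31 to 0.16, *q* = 0.341). Among all probes tested, *Bbc3* stood at the percentile 99.9 of the wild-type response.

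*Pmaip1* encodes Noxa, a BH3-only protein that pairs chiefly with Mcl-1. Its log2 ratios were 1.89 and 1.49 in wild-type and 0.38 and 0.12 in *Trp53*-/- cells. The groups were again apart, but unlike *Bbc3* both *Trp53*-/- values lay above 0. The wild-type mean was 1.69 ± 0.12 (SE), or 3.22-fold (limma, *q* = 2.00e-05). The *Trp53*-/- mean was 0.25 ± 0.12 (95% interval -0.01 to 0.50, *q* = 0.0879), and 0.38 without replicate 2 (*q* = 0.127).

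*Bid* encodes the BH3-only protein that caspase-8 cleaves to its active form, and its mean response differed by 0.02 log2 units between the genotypes. Its log2 ratios were 0.28 and 0.56 in wild-type and 0.36 and 0.42 in *Trp53*-/- cells. Every array lay above 0 and the wild-type values enclosed the others. The means of 0.42 (*q* = 0.00893) and 0.39 (*q* = 0.0128) passed the limit on *q* without reaching 2-fold. Without *Trp53*-/- replicate 2, the mean of that genotype was 0.36 with *q* = 0.130, from the lone array.

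*Bad* stayed near 0. Its product is a BH3-only protein held in check by phosphorylation and 14-3-3 binding. The log2 ratios were 0.05 and -0.08 in wild-type and -0.18 and -0.00 in *Trp53*-/- cells, and its other probe gave values between -0.06 and 0.17. *Bcl2l11* encodes Bim, which binds all pro-survival members. Its log2 ratios were 0.08 and 0.10 in wild-type and 0.13 and 0.16 in *Trp53*-/- cells. The signal of *Bcl2l11* was dim, since its control channel was well above background on wild-type replicate 1 only. In *Trp53*-/- cells its ratio is therefore a lower limit (at least 1.11-fold, from mean log2 levels of 6.65 with PJ34 and 6.50 in the control, *q* = 0.152). On the scanner's own ratios the *Bcl2l11* means were larger, 0.49 in wild-type (*q* = 0.140) and 0.96 in *Trp53*-/- cells (unadjusted *p* = 0.0141, limma, *q* = 0.0664), and neither was called.

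Of the effectors, *Bax* encodes the protein that moves from the cytosol to mitochondria on activation. Its log2 ratios were 0.53 and 0.26 in wild-type and -0.15 and 0.01 in *Trp53*-/- cells. The groups did not overlap. The wild-type mean of 0.39 ± 0.10 (SE) was 1.31-fold and passed the limit on *q* (0.0124) but not the 2-fold limit. *Bak1*, whose product resides at mitochondria throughout, had -0.08 and -0.30 in wild-type and -0.18 and -0.10 in *Trp53*-/- cells. Its means of -0.19 (*q* = 0.107) and -0.14 (*q* = 0.177) were not called, and both were positive (0.47 and 0.78) when arrays were centred on their median instead of by loess, a change that moved the median of all probes to 0.42 and 0.57.

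Among the pro-survival genes, the brighter probe of *Bcl2l1* gave 0.63 and 0.35 in wild-type and 0.06 and 0.20 in *Trp53*-/- cells. That wild-type mean was 0.49 ± 0.10 (SE), which is 1.40-fold (*q* = 0.00482). The probe whose sequence is printed above gave 0.22 and -0.04 in wild-type and -0.14 and -0.13 in *Trp53*-/- cells, with a wild-type mean of 0.09 (*q* = 0.299). The probes thus differed on whether *Bcl2l1* passed the limit on *q*.

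*Bcl2* gave log2 ratios of -0.26 and -0.12 in wild-type and -0.06 and 0.17 in *Trp53*-/- cells. Neither mean was called (-0.19 with *q* = 0.113, and 0.06 with *q* = 0.368), and the wild-type mean was 0.29 under median centring, below the 0.42 of all probes. *Mcl1*, which encodes a short-lived protein, had 0.22 and 0.18 in wild-type and 0.02 and -0.20 in *Trp53*-/- cells. Its wild-type mean was 0.20 (*q* = 0.0950) on the main probe and 0.01 (*q* = 0.498) on the other.

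Without the 2-fold limit, 5 members (*Bbc3*, *Pmaip1*, *Bid*, *Bax* and *Bcl2l1*) passed *q* below 0.05 in wild-type cells, all higher with PJ34, where 12.3% of all probes tested did. That count depended on single arrays, with 3 without wild-type replicate 1 (*Bax* at *q* = 0.189, *Bcl2l1* at 0.0947) and 4 without wild-type replicate 2 (*Bid* at 0.160). On the scanner's ratios it was 2, *Bbc3* and *Pmaip1*. After median centring it was 8, where the median of all probes had moved to 0.42. The shares of all probes by that rule are not given for these alternatives, so the counts are not read as particular to the members. In *Trp53*-/- cells, limma called 0 of 10 members, against 0.318% of all probes tested. There 1 member, *Bid*, passed *q* below 0.05 without the fold limit, where 12.0% of all probes were higher by that rule, and the same gene was the only member with an unadjusted *p* below 0.05, as 30.0% of all probes had. The median log2 ratio of the members was -0.01 in *Trp53*-/- cells and 0.03 over all probes tested. How the arrays were centred mattered for the count of all probes. Calls in wild-type were 71 higher and 47 lower after loess, against 1385 higher and 3 lower after median centring. In *Trp53*-/- they were 19 higher and 67 lower after loess, against 4020 and 4 after median centring and 355 and 125 from the scanner's own ratios.

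**Figure D1:**
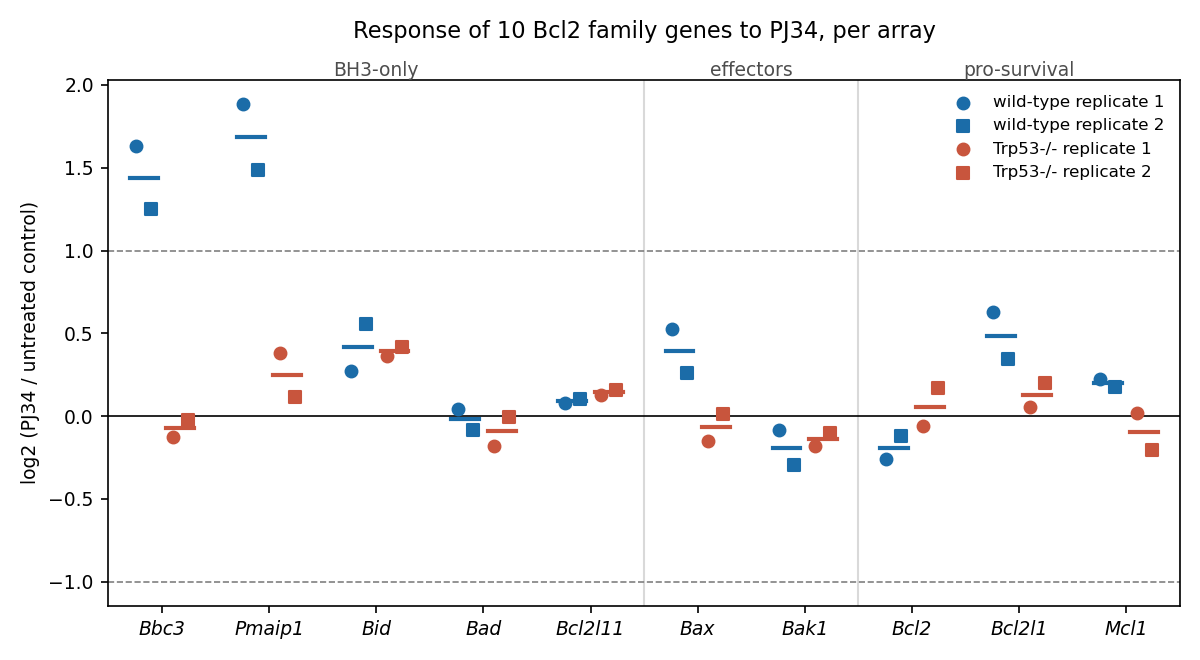
Log2 ratio of PJ34 over untreated control (vertical axis) for the 10 members (horizontal axis, grouped by role) on each of the 4 arrays. Points are arrays, short bars the mean of 2 arrays per genotype, and dashed lines mark 2-fold; only the wild-type arrays of *Bbc3* (1.63 and 1.25) and *Pmaip1* (1.89 and 1.49) lie beyond a line.

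Whether the response differed with genotype was tested as the difference between the genotypes' log2 ratios, in which a dye bias shared by all arrays cancels. The difference was called for *Bbc3* and *Pmaip1*, which were 2 of 10 members, against 0.422% of all probes tested called in either direction and 0.399% called higher in wild-type. For *Bbc3* the response was 1.51 log2 units larger in wild-type (95% interval 1.18 to 1.85, *q* = 0.00160), and for *Pmaip1* 1.44 units larger (1.08 to 1.80, *q* = 0.00230). Without *Trp53*-/- replicate 2 the differences were 1.56 and 1.30. In both cases the values on the scanner's own log ratios were similar (1.65 and 1.49) but no longer passed (*q* = 0.257 and 0.263).

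The next largest differences were those of *Bax* and *Bcl2l1*. *Bax* differed by 0.46 (95% interval 0.15 to 0.78, unadjusted *p* = 0.00825, limma) and did not pass over all probes (*q* = 0.128), nor without *Trp53*-/- replicate 2 (0.54, *q* = 0.165). *Bcl2l1* differed by 0.36 (0.04 to 0.67, *q* = 0.218) on the brighter probe and by 0.22 (-0.08 to 0.53) on the other. Together with *Bbc3* and *Pmaip1* they made 4 of 10 members with an unadjusted *p* below 0.05, where 14.0% of all probes had one. For *Mcl1* the difference was 0.29 (-0.00 to 0.59) and for *Bcl2* -0.25 (-0.55 to 0.06).

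The intervals of *Bid* (-0.28 to 0.33), *Bad* (-0.22 to 0.37) and *Bak1* (-0.35 to 0.25) all included 0 and ended well short of 2-fold on either side. That of *Bcl2l11* (-0.33 to 0.22) does not bound its difference, since its control channel was above background on wild-type replicate 1 only. On the scanner's ratios the difference was -0.47 ± 0.32 (SE). Wild-type ratios lay wholly above those of *Trp53*-/- cells for 5 of 10 members, where 20.7% of all probes did, and wholly below for 2 of 10 (*Bcl2l11* and *Bcl2*), where 23.9% did.

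**Figure D2:**
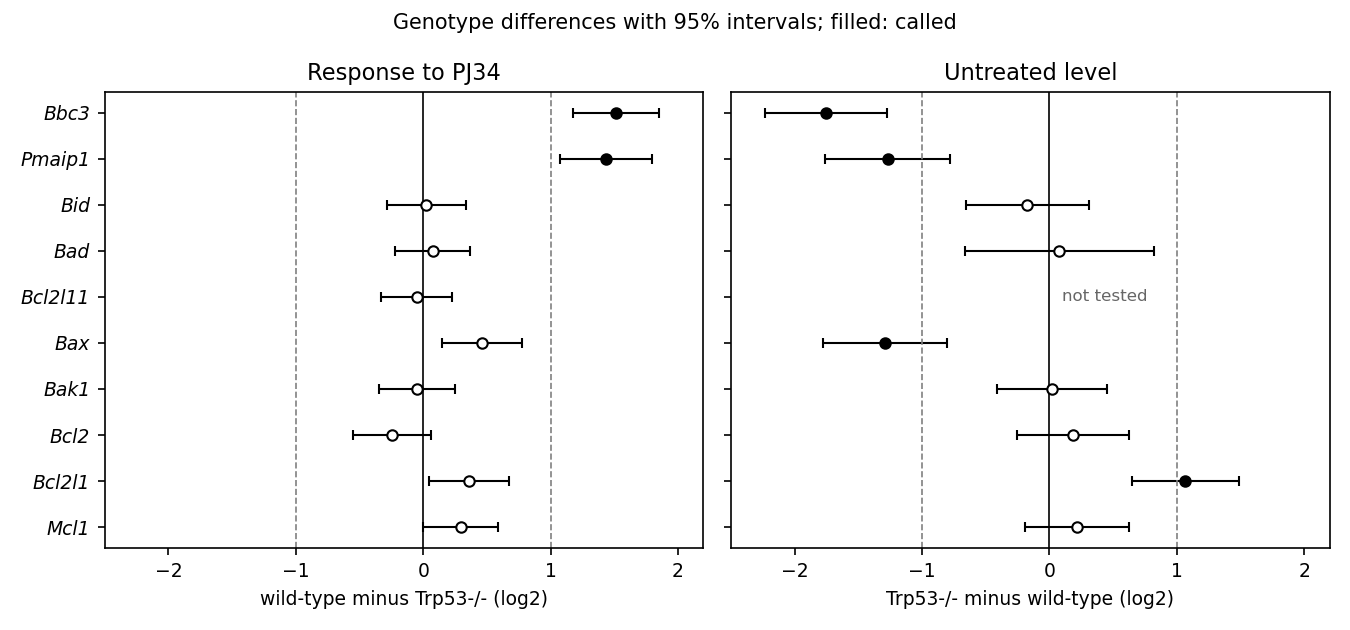
Genotype differences (horizontal axes, log2 units) for each member (vertical axis), in the response to PJ34 (left, wild-type minus *Trp53*-/-) and in the untreated level (right, *Trp53*-/- minus wild-type). Points are limma estimates from 4 arrays, bars 95% intervals, filled points called and dashed lines 2-fold; *Bbc3* and *Pmaip1* are filled on both sides, *Bax* and *Bcl2l1* on the right only.

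The genotypes also differed before any PJ34 was given. Untreated levels are log2 intensities of the control channel after normalization between arrays. They can be compared between arrays for 1 probe, but not between genes. 12 of the 13 member probes could be tested, all except that of *Bcl2l11*. By the same criteria, 4 of 9 members (44.4%) were called, against 4.29% of all 22420 probes tested. *Bbc3*, *Pmaip1* and *Bax* were lower in *Trp53*-/- cells (2.18% of all probes were) and *Bcl2l1* was higher (2.11% of all probes were). Over the 9 members the median difference was 0.02 and over all probes tested 0.03.

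Untreated *Bbc3* measured 9.64 and 10.01 in wild-type and 8.09 and 8.06 in *Trp53*-/- NSPCs. The groups were apart by more than a doubling at their nearest. The difference was -1.75 (95% interval -2.23 to -1.27), a level 3.37-fold lower in *Trp53*-/- cells (limma, *q* = 0.0138).

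Untreated *Pmaip1* measured 8.44 and 8.47 in wild-type and 6.98 and 7.39 in *Trp53*-/- cells. It was 2.41-fold lower in the latter (difference -1.27, 95% interval -1.76 to -0.78, *q* = 0.0225). Untreated *Bax* measured 13.44 and 13.82 against 12.38 and 12.31, and was 2.45-fold lower in *Trp53*-/- cells (difference -1.29, -1.77 to -0.81, *q* = 0.0216). For *Bax* the difference between untreated genotypes was therefore called while its response to PJ34 was not.

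Untreated *Bcl2l1* went the other way. It measured 11.88 and 12.00 in wild-type and 13.06 and 12.96 in *Trp53*-/- cells on the brighter probe, and was 2.09-fold higher in the latter (difference 1.07, 95% interval 0.65 to 1.49, *q* = 0.0231). The other probe gave 7.15 and 7.02 against 7.87 and 7.81, a difference of 0.76 that passed the limit on *q* (0.0404) but not 2-fold. Both probes thus placed *Trp53*-/- above wild-type on every array.

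The remaining members differed by between -0.17 (*Bid*) and 0.21 (*Mcl1*), and none of them was called. For *Bak1* the untreated levels were 12.24 and 12.22 in wild-type and 12.14 and 12.36 in *Trp53*-/- cells (difference 0.02, 95% interval -0.42 to 0.45). For *Mcl1* they were 12.54 and 12.52 against 12.71 and 12.78, and for *Bcl2* 8.55 and 8.31 against 8.62 and 8.60. Wild-type lay wholly below *Trp53*-/- for 3 of 9 members (*Bcl2l1* and these last 2), as for 29.8% of all probes, and wholly above for 3 of 9 (*Bbc3*, *Pmaip1* and *Bax*), as for 26.6%. *Bad* varied most between wild-type arrays, with 11.64 and 12.54, and its interval was wide (-0.66 to 0.82).

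These untreated calls rested on both *Trp53*-/- arrays. Without *Trp53*-/- replicate 2 none of the 4 passed in limma, with a lone array left in that genotype. The differences were then -1.73 for *Bbc3*, -1.47 for *Pmaip1*, -1.26 for *Bax* and 1.12 for *Bcl2l1*. Without *Trp53*-/- replicate 1 only *Bbc3* passed (difference -1.77). The sizes of the differences moved little. *Bcl2l1* fell short of 2-fold when both its probes were averaged (0.91, *q* = 0.0251), and *Bax* missed the limit on *q* on 75th percentile scaling (-1.20, *q* = 0.0501). Per the file headers each array had its own slide, so slide could not be used as a block.

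Markers of other cell types moved with genotype in the untreated cells. In *Trp53*-/- controls the oligodendrocyte marker *Mbp* (1.98 log2 units), 2 of 5 astrocyte markers (*Gfap*, 2.38, and *S100b*, 1.89) and 1 of 6 neuronal markers (*Rbfox3*, 1.24) were called higher, and 1 of 4 endothelial markers (*Kdr*, -1.34) lower. Without *Trp53*-/- replicate 2 only *Gfap* (2.38) and *Mbp* (2.01) of these 5 passed. On the log2 scale, the summed level of the astrocyte list was 13.34 to 13.35 in wild-type and 13.48 to 13.72 in *Trp53*-/- controls. For the neuronal list it was 12.09 to 12.75 and 12.18 to 12.35, and for the endothelial list 12.99 to 13.06 and 11.66 to 11.82. The endothelial markers *Cdh5* and *Cldn5* were not above background in any channel, nor were *Aif1*, *Cx3cr1* and *Ptprc* among 5 microglial markers. The other 2, *Csf1r* and *Itgam*, were above background in all 8 channels. The summed level of the microglial list was 12.57 to 12.81 in wild-type and 11.90 to 12.12 in *Trp53*-/- controls, and neither gene was called. The part of cell makeup, of sex and of mouse line in the members' untreated differences was not tested. In bulk RNA fewer cells of a type cannot be told apart from less RNA per cell.

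With PJ34, *Bbc3* reached 11.27 and 11.26 in wild-type cells, and 7.97 and 8.03 in *Trp53*-/- cells. For *Pmaip1* these levels were 10.32 and 9.96 against 7.36 and 7.50. For *Bax* they were 13.97 and 14.08 against 12.23 and 12.32. The 2 genotypes were thus further apart for these 3 genes with PJ34 than without, by the response differences given before, of which that of *Bax* was not called. For *Bcl2l1* the PJ34 levels were 12.51 and 12.35 against 13.12 and 13.16, closer together than in untreated cells but still with *Trp53*-/- cells above.

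**Figure D3:**
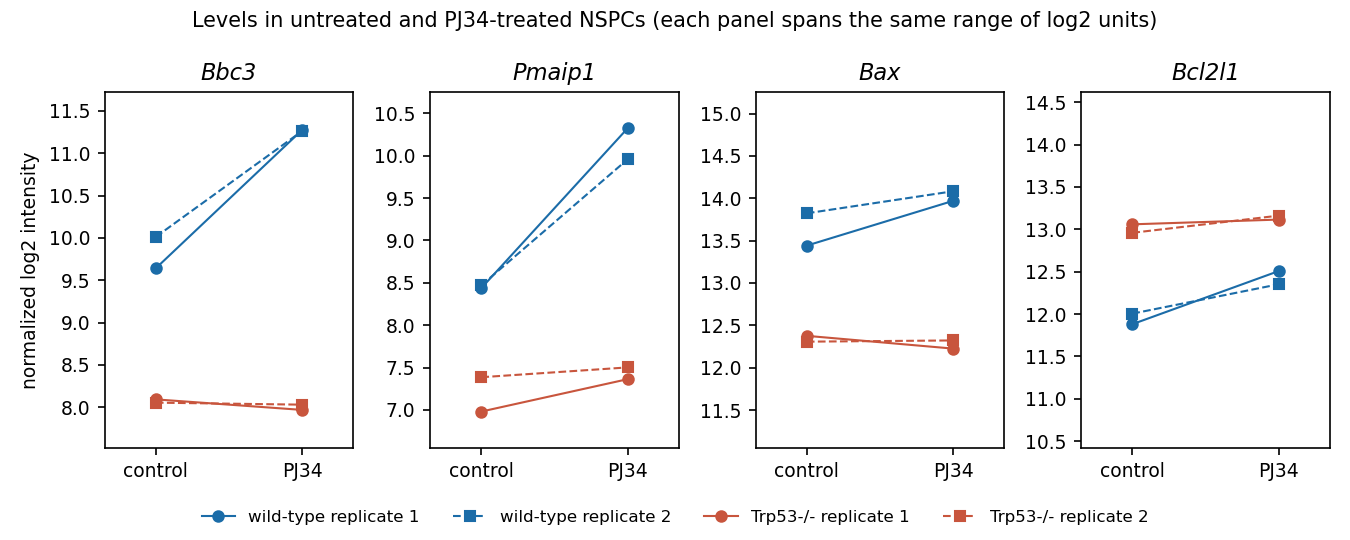
Normalized log2 intensity (vertical axes) of *Bbc3*, *Pmaip1*, *Bax* and *Bcl2l1* in untreated control and PJ34-treated NSPCs (horizontal axes), with a line for each of the 4 arrays. For *Bbc3*, *Pmaip1* and *Bax* both wild-type lines lie above both *Trp53*-/- lines in both conditions, and for *Bcl2l1* below.

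Since *Bbc3* and *Bax* were both lower in untreated *Trp53*-/- cells, their promoter windows were read from RefSeq (GRCm38.p6) and searched for the consensus p53 site. This site is a pair of adjacent elements of 10 bases, each with a fixed central C and G, and the consensus is its own reverse complement, so that both strands are covered. Up to 2 mismatches were allowed and no spacer. A window ran from 250 bases before to 50 bases after a gene's start. 9 member genes, all but *Pmaip1*, were searched in 15 windows, some of them overlapping. None of these held a full site, which 0.326% of all 32851 windows did. Full sites by this rule were so rare that their absence from 15 windows carries little information. An exact single element was in 1 of the 15 and in 8.36% of all windows. That 1 window was the *Bax* window, and the element lay between positions -201 and -192 from the start.

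The 250 bases before the start of *Bax* (chr7:45466899-45467148, minus strand) are printed with this element in capitals. Those before the most upstream start of *Bbc3* (chr7:16309333-16309582, plus strand) hold no exact element and are in lower case throughout. These positions are on another build than those of the probes. A match is a description of letters, and sites beyond the window were not searched.
*Bax*: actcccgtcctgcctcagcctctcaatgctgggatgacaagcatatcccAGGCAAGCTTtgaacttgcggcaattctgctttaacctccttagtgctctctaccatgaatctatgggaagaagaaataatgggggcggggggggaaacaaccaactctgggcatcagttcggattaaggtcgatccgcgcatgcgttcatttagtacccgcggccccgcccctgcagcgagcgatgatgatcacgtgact
*Bbc3*: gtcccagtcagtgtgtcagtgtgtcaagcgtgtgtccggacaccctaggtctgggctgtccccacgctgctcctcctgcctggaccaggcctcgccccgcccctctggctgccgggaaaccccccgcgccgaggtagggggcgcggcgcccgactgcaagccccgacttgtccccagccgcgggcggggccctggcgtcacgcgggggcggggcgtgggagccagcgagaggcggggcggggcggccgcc

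Other genes of the pathway were followed in 3 lists. Of 16 further members and relatives of the Bcl2 family, 9 could be tested for the response. *Bok*, a multidomain relative of *Bax* and *Bak1*, was downregulated in wild-type cells, with log2 ratios of -1.15 and -1.21 (mean -1.18, limma, *q* = 3.26e-05). It was the only gene of that list called. *Bok* had a mean of -0.82 in *Trp53*-/- cells, which passed the limit on *q* but not 2-fold, and the genotype difference was not called (-0.36, *q* = 0.171). Looked at after their values were known, *Bnip3l* (0.71 and 0.46) and *Bcl2l12* (-0.65 and -0.56) also passed the limit on *q* in both genotypes without reaching 2-fold. The median of that list was 0.09 in wild-type and 0.09 in *Trp53*-/- cells.

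Of 18 genes that act after the family in the mitochondrial route (the voltage-dependent channels, cytochrome c, the apoptosome, caspases and their inhibitors), 17 were tested and none was called in any of the 4 comparisons. In wild-type cells 2 of them passed *q* below 0.05 upwards and 3 downwards, where 12.3% and 10.4% of all probes did. *Apaf1*, the scaffold of the apoptosome and also singled out after its value was known, had a mean of 0.59 in wild-type and -0.05 in *Trp53*-/- cells, and the difference passed the limit on *q* without reaching 2-fold (0.64, *q* = 0.0379). It no longer did without *Trp53*-/- replicate 2 (*q* = 0.0774). The list's median log2 ratio was -0.08 in wild-type and -0.03 in *Trp53*-/- cells.

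Of 36 regulators and partners of the members, 33 were tested. *Mdm2*, which encodes the ubiquitin ligase of p53 and is itself a p53 target, was the only one called in the response, with a mean of 1.02 in wild-type and -0.03 in *Trp53*-/- cells. The difference of 1.05 was called too (*q* = 0.00584), also without *Trp53*-/- replicate 2 (1.01, *q* = 0.00523). In untreated cells *Ddit3*, which encodes the stress-response factor Chop, was 1.07 log2 units higher in *Trp53*-/- than in wild-type cells (*q* = 0.0253). *Rps6ka1*, which encodes a kinase that can phosphorylate Bad, was 1.76 units higher (*q* = 0.0222). Neither passed without *Trp53*-/- replicate 2 (*q* = 0.441 and 0.0786). The median of this list was 0.06 in wild-type and -0.03 in *Trp53*-/- cells.

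**Figure D4:**
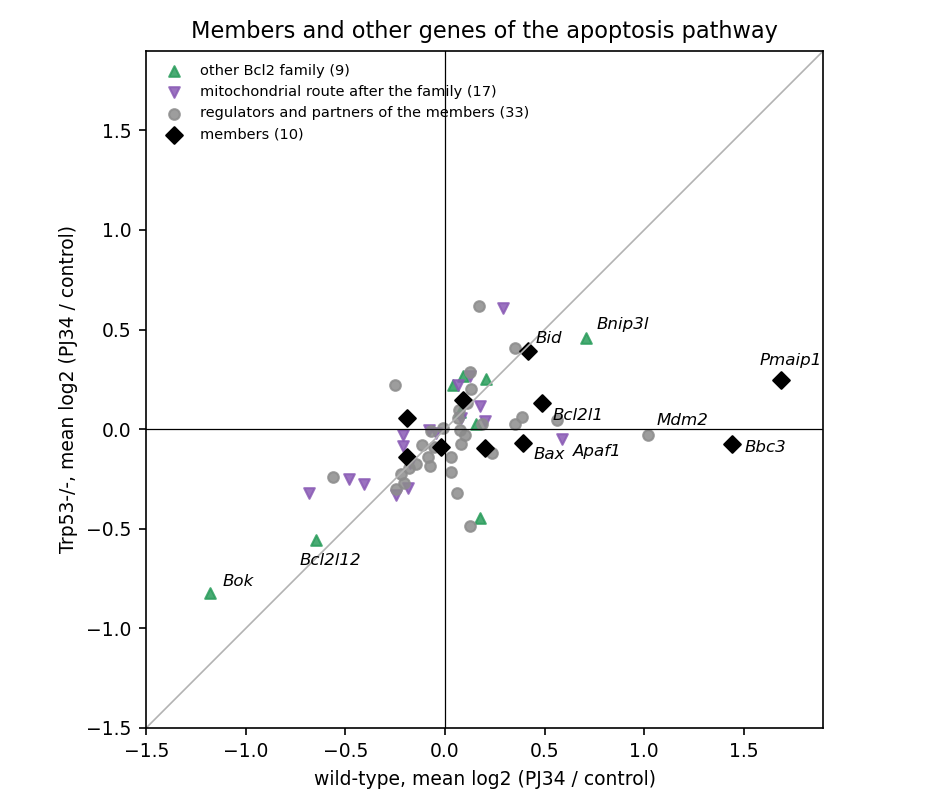
Mean log2 ratio of PJ34 over control in wild-type (horizontal axis) and *Trp53*-/- NSPCs (vertical axis) for the 10 members and the tested genes of the 3 lists, 1 point per gene, with the grey line marking equal responses. *Pmaip1* (1.69), *Bbc3* (1.44) and *Mdm2* (1.02) lie far to the right near a *Trp53*-/- value of 0, while *Bok* (-1.18 and -0.82) lies low in both.

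The genes whose 4 ratios were most like those of a member were ranked by Euclidean distance over the 4 arrays among 13483 genes. Nearest to *Bbc3* was *Dcxr* (distance 0.22), with log2 ratios of 1.65 and 1.45 in wild-type and -0.16 and 0.05 in *Trp53*-/- cells. It was followed by *Celf5* (0.25), *Pqlc3* (0.25), *Etnk2* (0.25) and *Tnfrsf10b* (0.34). Nearest to *Pmaip1* were *Tnfrsf10b* (0.38), *Trp53inp1* (0.39), *Plxdc2* (0.44), *Ppp2r2c* (0.50) and *Dapk1* (0.51). *Tnfrsf10b*, which encodes a death receptor, was thus near both members, with ratios of 1.76 and 1.41 in wild-type and 0.04 and 0.20 in *Trp53*-/- cells.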

How the data were processed

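The authors hybridized PJ34 (Cy5) and control (Cy3) RNA to 4 Agilent arrays and, per the submitters' processing notes, read them with Agilent Feature Extraction 10.7.3.1. The deposited intensity values used here are mean spot and median background brightness. The deposited log10 ratios served as an alternative only, converted to log2. A normalized table with 4 columns of per-sample values was not used, since no column name matches a label.

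Background was corrected by normexp (offset 50) and ratios by loess with limma 3.58.1 (R 4.3.3). Control and outlier spots were left out, and probes with a channel well above background on both arrays of a genotype were kept. Control levels were Cy3 values after quantile normalization of mean intensities between arrays. limma was fitted over 4 arrays, with Storey's *q* over all probes kept. The number of arrays limits precision.

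A member was read from its brightest probe, *Bbc3* and *Pmaip1* from the probe the study names. Named list genes were those called in any comparison, beside *Apaf1*, *Bnip3l* and *Bcl2l12*, chosen after their values were seen. The members, lists and tests were chosen with earlier results of these data known. Fits were tested on simulated data. Alternatives covered background, normalization, filter, model, adjustment, probes and left-out arrays. The oligodendrocyte marker list is not reported here as a whole.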

Additional observations from a re-analysis of the deposited data

Results flagged for a closer look

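The response to PJ34 differed between the genotypes, by a test of the difference itself, for *Bbc3* (1.51 log2 units larger in wild-type) and *Pmaip1* (1.44 units larger). Both were higher in wild-type on each pair of arrays compared.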

How the results depend on the processing

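*Bbc3* and *Pmaip1* were called in wild-type NSPCs under all alternatives run. Median centring moved the median of all probes to 0.42 in wild-type, 0.57 in *Trp53*-/- and -0.14 for their difference. It called 4 members in wild-type (*Bax* and *Bcl2l1* added), where 1388 of all 27042 probes were called. In *Trp53*-/- it called 2 (*Bid* and *Bcl2l1*), where 4024 of all probes were called. Dropping the fold limit called 5 and 1, where 22.8% and 21.7% of all probes were called in either direction. For the difference, an offset of 16 left 1 (*Bbc3*), where 36 of all probes were called. With limma on the scanner's ratios it was 0 members, where 0 of all probes were called. The cause was not tested. For untreated levels, the mean of a gene's probes left 3 (without *Bcl2l1*, at 0.91) and 75th percentile scaling 3 (without *Bax*, *q* = 0.0501). Leaving out an array gave 0 to 4 untreated calls. The lowest counts were 0 without *Trp53*-/- replicate 2 and 1 without *Trp53*-/- replicate 1.

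Deviations of same-numbered arrays correlated weakly (r = -0.169 for the response, 0.0745 untreated). This check cannot show whether arrays with the same number were prepared together. With the replicate block the counts were 2, 0, 2 and 4, unchanged, and a crossed pairing, chosen after seeing the data, gave 2, 0 and 2.

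Each reversed value was of a member not called in that same comparison in the main fit. Median centring gave *Bad* 0.65, *Bak1* 0.47 and *Bcl2* 0.29 in wild-type. It gave *Bbc3* 0.50, *Bad* 0.83, *Bax* 0.86, *Bak1* 0.78 and *Mcl1* 0.86 in *Trp53*-/-, and *Bid* -0.12 and *Bad* -0.17 for the difference. The mean of a gene's probes gave *Bad* 0.0167 and *Bcl2l1* -0.0018 in *Trp53*-/-, *Bad* -0.0212 for the difference and *Bad* -0.0611 untreated. With an array left out, *Bad* ranged from -0.0818 to 0.0452 in wild-type. In *Trp53*-/-, *Bax* ranged from -0.151 to 0.0145, *Bcl2* from -0.0579 to 0.171 and *Mcl1* from -0.203 to 0.0164. For the difference, *Bid* ranged from -0.116 to 0.164, *Bak1* from -0.156 to 0.0562 and *Bad* from -0.0147 to 0.162. Untreated, *Bad* ranged from -0.372 to 0.529, *Bid* from -0.365 to 0.0174 and *Bak1* from -0.0928 to 0.127. A lone array left in a genotype was assumed to vary like the others.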
